A study of Homo sapiens with 6 samples.

Results

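The p53 target genes and DNA damage checkpoint genes examined here are a list of 33 named genes, taken by symbol from the 61228 genes of the expression table. Of the 33, 32 had enough counts to be tested; EDA2R did not. The study asked which transcripts the aryl hydrocarbon receptor (AhR) controls in airway epithelium exposed to an allergen, and RNA-seq was performed on human bronchial epithelial cells (HBECs), an immortalized cell line labelled wild type. One group of 3 libraries came from cells given cockroach extract (CRE) for 24 h. The other group of 3 libraries, CRE+VAF347, came from cells pre-treated with VAF347, a small-molecule AhR agonist, and exposed to the same extract for 24 h. All 6 libraries were therefore CRE-exposed, and untreated cells and cells given VAF347 alone were not analysed here, so each comparison is of VAF347 on top of CRE and carries no information on the effect of CRE. The sources used here do not give how the line was immortalized, and viral proteins often used for that purpose inactivate p53; whether p53 is functional in these cells was not tested.

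The transcription factor p53 is held low by the ubiquitin ligase MDM2, which is itself a p53 target and so closes a feedback loop. When DNA is damaged, the kinases ATM and ATR are activated and signal through CHEK2 and CHEK1, p53 is stabilized, and it switches on genes for cell cycle arrest, DNA repair, cell death, antioxidant defence and its own shut-off. In epithelial cells this response is one route into senescence, a lasting arrest in which p53 acts largely through the cyclin-dependent kinase inhibitor encoded by CDKN1A. The control of p53 by damage is mostly at the protein level, which RNA libraries do not measure.

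The libraries held 8873160 to 10750283 counts assigned to genes. The AhR target genes CYP1A1, CYP1B1, AHRR and TIPARP, which serve as a check of the labels, rose by 2.16 to 6.20 on the log2 scale. Among epithelial markers, KRT8, KRT18, KRT19, EPCAM and CDH1 were abundant, whereas the basal cell markers KRT14 and TP63 had at most 2 counts in any library. The basal marker KRT5 was present, with 169, 160 and 156 counts in CRE and 108, 120 and 122 with VAF347 (log2 fold change -0.37, edgeR adjusted p = 0.0773). KRT19 fell by 0.38 on the log2 scale. Of 11 markers of other cell types, 4 had enough counts to be tested. PTPRC, CD3E and PECAM1 had at most 3 counts in any library, and DCN, LUM and PDGFRA had 0 in all. The fibroblast marker COL1A1 had 342 to 434 counts (log2 fold change -0.10, edgeR adjusted p = 0.572). Another fibroblast marker, COL1A2, had too few counts to be tested, at 11, 10 and 8 in CRE and 3, 2 and 3 with VAF347. The macrophage marker CD68 went from 222, 283 and 282 counts to 187, 204 and 149 (log2 fold change -0.43, edgeR adjusted p = 0.0912). Both endothelial genes with enough counts were lower with VAF347, with VWF going from 24, 38 and 39 counts to 12, 10 and 12, and CDH5 going from 178, 172 and 188 counts to 93, 87 and 100. The summed level of the 11 markers was 84.9 to 90.1 CPM in CRE and 64.0 to 72.6 CPM with VAF347. The part of these cells or genes in the results below was not tested, and in bulk RNA fewer cells of a type and less RNA per cell cannot be told apart. Across 11110 genes with a mean over 3 in log2 CPM (counts scaled to a common library size), the log2 fold change was lower where GC content was higher (Spearman rho = -0.346), and over the 32 genes tested here rho was -0.265. These are correlations across genes measured in the same 6 libraries, and genes are not independent replicates.

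Most of the p53 targets and checkpoint genes differed little between the groups. Fold changes are given as log2 of CRE+VAF347 over CRE from edgeR's quasi-likelihood test, with the standard error (SE) and a p-value adjusted by Benjamini-Hochberg over all 15373 genes tested. A gene was called where the adjusted p was under 0.05 and the log2 fold change was beyond 0.5 in either direction. Of the 32 genes, 1 was called, the kinase gene PLK2, which fell; 2.21% of all genes tested were called. With no fold threshold, 3 of the 32 passed the adjusted p, against 5.42% of all genes. GADD45A was the 1 that rose (1.35% of all genes rose), and PLK2 and BBC3 were the 2 that fell (4.07% of all genes fell). The remaining 29 did not pass, although 10 of the 32 had an unadjusted p under 0.05, as had 20.8% of all genes. The nominal log2 fold changes were split evenly, 16 above 0 and 16 below it, with a median of 0.00 and a range from -0.61 to 0.49. The median over all genes was 0.01. Without regard to sign, the median size was 0.145 for these genes and 0.129 for all genes.

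**Figure D1:**
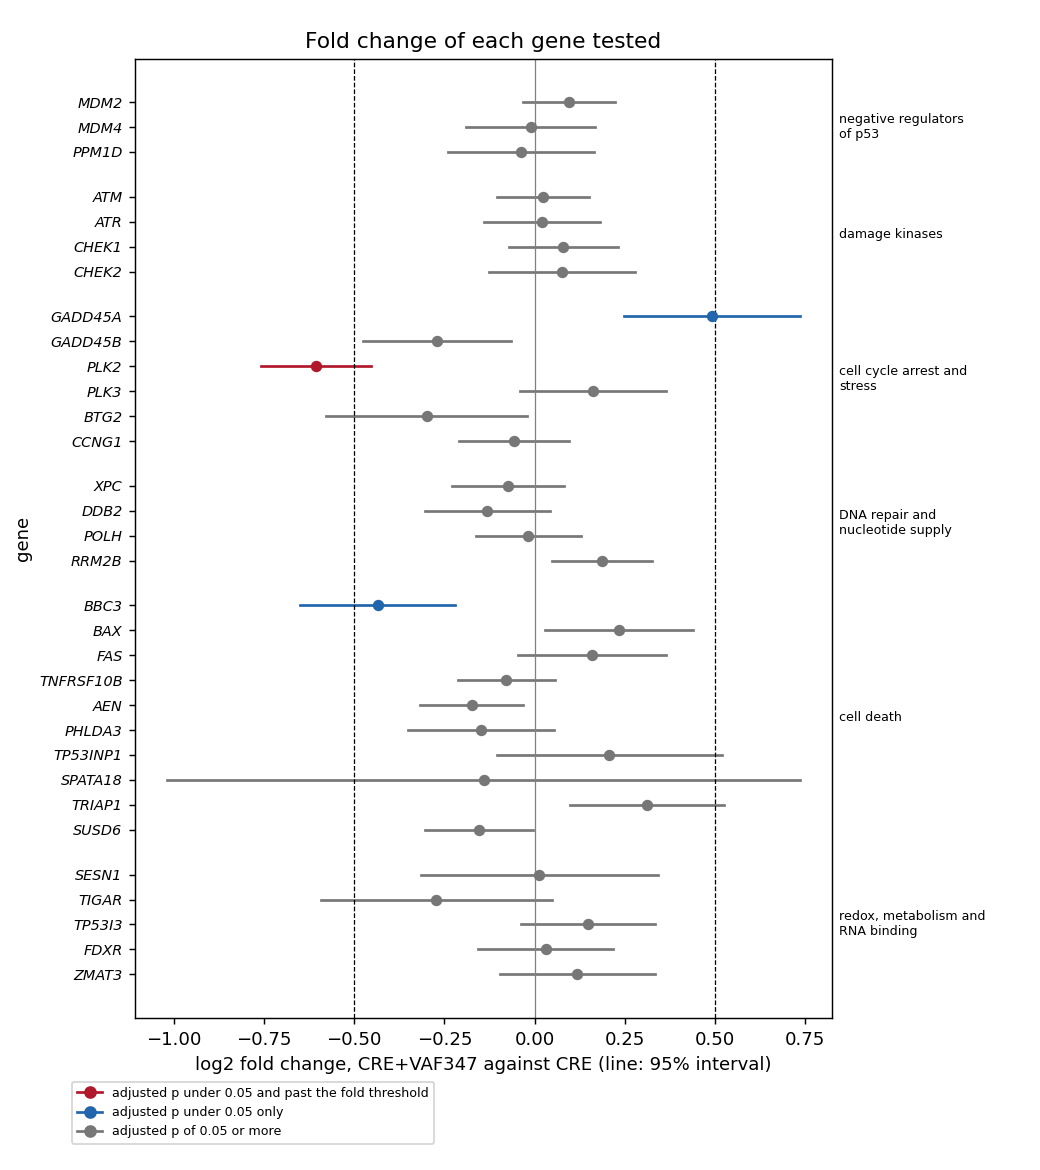
Log2 fold change of each of the 32 tested genes, CRE+VAF347 against CRE (horizontal axis), with its 95% interval from edgeR as a line and genes grouped by role on the vertical axis. The dashed lines mark -0.5 and 0.5, PLK2 in red lies beyond -0.5 at -0.61, GADD45A and BBC3 in blue passed the adjusted p only, and 24 of the 32 intervals lie inside the dashed lines.

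How small the differences were can be read from the intervals. The 95% interval of the log2 fold change lay wholly between -0.5 and 0.5 for 24 of the 32 genes, against 65.1% of all genes tested. The 8 genes whose interval reached past 0.5 in at least one direction were GADD45A, PLK2, BTG2, BBC3, TP53INP1, SPATA18, TRIAP1 and TIGAR, and for these a difference of that size was not excluded by the interval. The libraries of the groups did not overlap in CPM for 12 of the 32 genes, against 27.3% of all genes. Of the 12, 7 were higher with VAF347 (12.5% of all genes), namely GADD45A, PLK3, RRM2B, BAX, FAS, TRIAP1 and TP53I3. The other 5 were lower (14.8% of all genes), namely GADD45B, PLK2, BBC3, AEN and SUSD6. Separation in this sense is weaker than the test, since 9 of the 12 did not pass the adjusted p. The number that passed it moved between 1 and 5 when single libraries were left out. It was 5 without CRE replicate 3, when 8.26% of all genes passed. PHLDA3 (log2 fold change -0.25, edgeR adjusted p = 0.0304) and TIGAR (-0.42, 0.0432) were then added. The number was 1, PLK2, without CRE+VAF347 replicate 1, 2 or 3, when 2.43%, 2.16% and 1.96% of all genes passed.

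**Figure D2:**
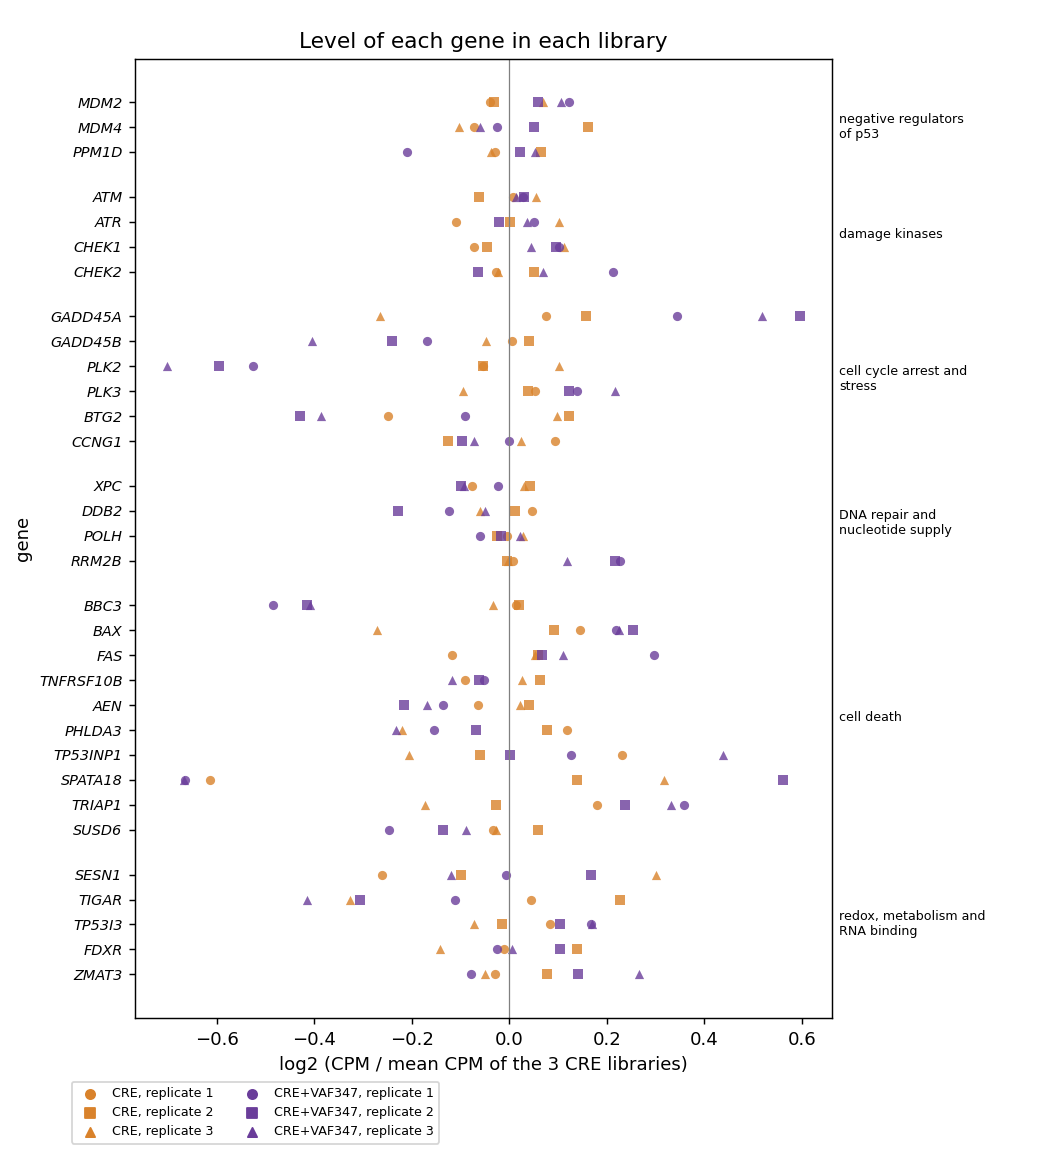
Level of each tested gene in each of the 6 libraries as log2 of its CPM over the mean CPM of the 3 CRE libraries (horizontal axis, genes on the vertical axis, orange for CRE, purple for CRE+VAF347, marker shape for replicate number). The purple points of PLK2 and BBC3 lie left of all orange points and those of GADD45A lie right of them, while for MDM4, ATM and XPC the colours mix.

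The genes of cell cycle arrest and stress signalling held the largest differences in both directions. Of 6 tested, GADD45A rose, PLK2 fell and 4 did not pass, and the median log2 fold change was -0.16. PLK2 encodes a polo-like kinase, induced by p53 and by other stress signals, that acts in centriole duplication. It lies at chr5:58453982-58460139 on the minus strand, and no other annotated gene shares its exons. Its level was 243, 243 and 270 CPM in the CRE libraries (2344, 2474 and 2893 counts). With VAF347 it was 175, 167 and 155 CPM (1557, 1585 and 1552 counts). Every CRE+VAF347 library lay below every CRE library, and the gap between the groups was wider than the spread within either. The mean went from 252 ± 16.0 CPM to 165 ± 10.1 CPM (SD, n = 3 each), a 1.52-fold lower level and a log2 fold change of -0.61 (SE 0.07, 95% interval -0.76 to -0.45, edgeR adjusted p = 0.000639). PLK2 ranked 57 of the 15373 genes by p. The fall was called without each library in turn, with log2 fold changes between -0.66 and -0.55. In TPM, where reads are also scaled by transcript length, it was 163, 165 and 240 in CRE and 123, 121 and 118 with VAF347. The groups again did not overlap, and CRE replicate 3 was well above the other CRE libraries. The limma test on log2(TPM + 1) gave -0.62 with an adjusted p of 0.122.

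GADD45A and GADD45B encode small nuclear stress sensors that bind cell cycle proteins and activate stress kinases. GADD45A (chr1:67685201-67688334, plus strand) had 30.3, 32.1 and 23.9 CPM in CRE libraries (293, 327 and 256 counts). With VAF347 it had 36.5, 43.5 and 41.2 CPM (325, 414 and 413 counts). All 3 CRE+VAF347 libraries were above all CRE libraries, of which replicate 3 was the lowest. The log2 fold change was 0.49 (SE 0.11, 95% interval 0.25 to 0.74, edgeR adjusted p = 0.0268), a 1.41-fold higher level that stayed just under the fold threshold. It passed that threshold without CRE replicate 1 (0.53, edgeR adjusted p = 0.0481) and without CRE replicate 2 (0.58, 0.0328), and was 0.37 without CRE replicate 3 (0.0141). The adjusted p was missed without CRE+VAF347 replicate 1, 2 or 3, at 0.0560, 0.146 and 0.129. It was also missed with length offsets (0.48, edgeR adjusted p = 0.0640) and by limma on log2(TPM + 1) (0.42, adjusted p = 0.142). GADD45A also stands among the genes that the study picked for its senescence heatmap from these same libraries, so its direction there is not independent of the values here.

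GADD45B had 23.1, 23.6 and 22.2 CPM in CRE and 20.5, 19.5 and 17.4 CPM with VAF347. Its libraries did not overlap and its nominal difference was opposite to that of GADD45A, at -0.27 (SE 0.09), but it missed the adjusted p (edgeR, 0.125). A second polo-like kinase gene, PLK3, whose product responds to genotoxic and oxidative stress, likewise lay opposite to PLK2. It had 18.5, 18.3 and 16.7 CPM in CRE and 19.7, 19.4 and 20.8 CPM with VAF347. Its fold change, 0.16 on the log2 scale, missed the adjusted p (edgeR, 0.352). BTG2, an antiproliferative gene whose product promotes mRNA deadenylation, had 18.2, 23.5 and 23.2 CPM in CRE and 20.3, 16.1 and 16.6 CPM with VAF347. The groups overlapped for BTG2, and its -0.30 did not pass (edgeR adjusted p = 0.209). CCNG1, a cyclin that recruits phosphatase to MDM2, had 88.6 to 103 CPM in CRE and 90.4 to 96.6 CPM with VAF347.

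Ratios between related genes were taken in each library, which removes the scaling of the library. The 4 pairs were chosen after the values were seen, and in 3 of them a gene whose libraries were all higher was set against one whose libraries were all lower, so that the ratio had to separate the groups and no test is given. The log2 ratio of GADD45A to GADD45B was 0.39, 0.44 and 0.10 in CRE and 0.84, 1.16 and 1.25 with VAF347. That of PLK2 to PLK3 was 3.71, 3.73 and 4.01 in CRE and 3.15, 3.10 and 2.90 with VAF347. For BAX to BBC3, both genes of mitochondrial cell death, it was 2.60, 2.54 and 2.23 in CRE and 3.17, 3.14 and 3.10 with VAF347. The shifts of these 3 ratios were 0.77, -0.77 and 0.68 on the log2 scale. The ratio of MDM2 to MDM4 differed by 0.10, and its libraries overlapped.

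Cell death genes were the largest group, with 11 members of which 10 were tested, and 1 of the 10 passed. BBC3 encodes PUMA, a BH3-only protein that sets off mitochondrial apoptosis and is among the strongest death effectors of p53. It lies at chr19:47220822-47232766 on the minus strand, sharing exonic sequence only with microRNA genes at 0 counts. It had 17.0, 17.1 and 16.5 CPM in CRE libraries (164, 174 and 176 counts). With VAF347 it had 12.0, 12.6 and 12.7 CPM (107, 120 and 127 counts). The replicates were tight, and the groups stood well apart. BBC3 fell with a log2 fold change of -0.44 (SE 0.10, 95% interval -0.65 to -0.22, edgeR adjusted p = 0.0265), a 1.35-fold lower level. At these counts the call was fragile, since the adjusted p was 0.0197 without CRE replicate 3 but 0.0641 to 0.0901 without any one of the other 5 libraries. DESeq2 gave an adjusted p of 0.195, edgeR with length offsets 0.151 and limma on log2(TPM + 1) 0.255. BBC3 had the highest GC content of the 33 genes at 64.4%, and with a correction for GC, chosen after seeing the data, it was -0.35 (edgeR adjusted p = 0.0762).

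BAX, which forms the pore in the outer mitochondrial membrane and which PUMA activates, had 103, 99.2 and 77.1 CPM in CRE and 108, 111 and 109 CPM with VAF347. Its libraries did not overlap, and CRE replicate 3 lay far below the rest. The log2 fold change was 0.23 (edgeR adjusted p = 0.184) with all libraries and 0.11 (0.219) without CRE replicate 3. TRIAP1, a mitochondrial protein that restrains apoptosis, had 29.1, 25.2 and 22.8 CPM in CRE and 32.9, 30.3 and 32.3 CPM with VAF347. Its 0.31 (SE 0.10) was short of the adjusted p with all libraries (edgeR, 0.0931), and passed without CRE replicate 1 (0.41, 0.0427). The death receptor genes FAS and TNFRSF10B, whose products start apoptosis at the cell surface, gave 0.16 and -0.08, with edgeR adjusted p of 0.370 and 0.513. FAS shares exonic sequence with STAMBPL1 and ACTA2, and TNFRSF10B with RHOBTB2, so that reads could be split between them.

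Of the other death genes, AEN, an apoptosis-enhancing nuclease, was at -0.17 and SUSD6, a p53-induced membrane protein, at -0.15. Both had libraries that did not overlap and neither passed, with edgeR adjusted p of 0.157 and 0.225. PHLDA3, which competes with AKT for membrane lipids, was at -0.15. TP53INP1, a stress protein that links p53 to autophagy and death, was at 0.21 (SE 0.14). SPATA18, a mitochondrial quality control gene, was at 8 to 20 counts in every library, and its interval of -1.02 to 0.74 covers a difference of either sign. EDA2R, a receptor of the tumour necrosis factor family, had 2, 3 and 7 counts in CRE and 2, 2 and 2 with VAF347, and no difference was detectable at this depth. Over the 10 tested the median log2 fold change was -0.11.

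Of the 3 negative regulators of p53, 0 passed by edgeR or by DESeq2, and 0 had an unadjusted p under 0.05 in either. MDM2 had 138, 138 and 148 CPM in CRE and 154, 147 and 152 CPM with VAF347, so the ranges overlapped at their edges. Its log2 fold change was 0.10 (95% interval -0.03 to 0.22, edgeR adjusted p = 0.387). MDM4, the partner of MDM2 that masks the activation domain of p53, had 55.5, 65.2 and 54.3 CPM in CRE and 57.3, 60.5 and 56.0 CPM with VAF347. Its log2 fold change was -0.01 (95% interval -0.19 to 0.17). PPM1D, encoding the phosphatase that removes damage-induced phosphates from p53 and its kinases, was at -0.04 (95% interval -0.24 to 0.16). All 3 intervals lay inside -0.5 to 0.5.

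The damage kinases were as close. ATM, activated by double-strand breaks, had 106, 101 and 109.5 CPM in CRE and 107, 108 and 106 CPM with VAF347. The log2 fold change was 0.02 with a 95% interval from -0.10 to 0.15. ATR, activated at stalled replication forks, was at 0.02 (-0.14 to 0.18). CHEK1 and CHEK2, the checkpoint kinases that carry the signal on to the cell cycle machinery, were both at 0.08, with intervals of -0.07 to 0.23 and -0.13 to 0.28. None of the 4 passed by edgeR or by DESeq2, and 0 of the 4 had an unadjusted p under 0.05 in either. CHEK1 shares exonic sequence with STT3A on the same strand. These are transcript levels, and the activity of the kinases was not measured.

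Genes of DNA repair and nucleotide supply gave 0 of 4 past the adjusted p by edgeR and by DESeq2, with 1 at an unadjusted p under 0.05 in edgeR and 0 in DESeq2. That gene was RRM2B, the p53-inducible subunit of ribonucleotide reductase, which makes deoxynucleotides for repair. It had 59.1, 58.7 and 58.7 CPM in CRE and 68.9, 68.3 and 63.9 CPM with VAF347. The CRE libraries were nearly identical and all lay below the others, and the 0.19 (SE 0.06) had an edgeR adjusted p of 0.115. XPC and DDB2 encode the proteins that find bulky and ultraviolet lesions for nucleotide excision repair. XPC was at -0.07 and DDB2 at -0.13, the latter from 35.5, 34.6 and 33 CPM to 31.6, 29.3 and 33.2 CPM, with overlapping libraries. POLH, the polymerase that copies past ultraviolet lesions, was at -0.02 (95% interval -0.16 to 0.13).

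Of the genes for redox control, metabolism and RNA binding, 0 of 5 passed by edgeR or by DESeq2, and 0 had an unadjusted p under 0.05 in either. SESN1, an antioxidant and nutrient-sensing protein, was at 0.01 (95% interval -0.32 to 0.34). TP53I3, a quinone oxidoreductase, was at 0.15, FDXR, the mitochondrial ferredoxin reductase, at 0.03, and ZMAT3, an RNA-binding splicing regulator, at 0.12. TIGAR encodes a phosphatase that lowers glycolytic flux and so favours the pentose phosphate pathway and antioxidant defence. In counts it did not pass, but it did in TPM with a filter on low values, whereas PLK2, GADD45A and BBC3 passed in counts and not in TPM.

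TIGAR (chr12:4307763-4360028, plus strand) had 17.3, 19.6 and 13.4 CPM in CRE (167, 200 and 143 counts). With VAF347 it had 15.5, 13.6 and 12.6 CPM (138, 129 and 126 counts). The groups overlapped, and the log2 fold change was -0.27 (SE 0.15, 95% interval -0.59 to 0.05, edgeR adjusted p = 0.321). In TPM, which divides each transcript's reads by its effective length before scaling, TIGAR had 9.62, 10.8 and 12.2 in CRE. With VAF347 it had 4.31, 3.50 and 3.26 TPM. On this scale the groups stood far apart, with means of 10.9 ± 1.30 and 3.69 ± 0.55 TPM (SD, n = 3 each). The limma test on log2(TPM + 1), with genes of mean TPM of at least 1, gave -1.34 with an adjusted p of 0.00925, and of 0.0641 with no filter. With the lengths entered as offsets in edgeR's count model it was -1.52 (edgeR adjusted p = 0.00105).

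The count per TPM of a gene rises with the mean effective length of the transcripts to which its reads were assigned. For TIGAR, on a log2 scale centred on the gene, it was -0.48, -0.45 and -0.99 in CRE and 0.56, 0.67 and 0.69 with VAF347. The shift of 1.28, a 2.43-fold change, ranked 10 among 15370 genes by size. A shift over 1 in either direction was found in 28 genes (0.182%), TIGAR being the only one on the list. The next in size on the list was SPATA18 at 0.34, a gene of few counts. In the annotation TIGAR has 4 transcripts, with lengths of 8209, 3633, 527 and 160 bases. It also shares exonic sequence on the same strand with the gene ENSG00000285901, which had 79, 29 and 102 counts in CRE and 96, 64 and 131 with VAF347. The part of read assignment between these transcripts and genes in the shift was not tested.

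**Figure D3:**
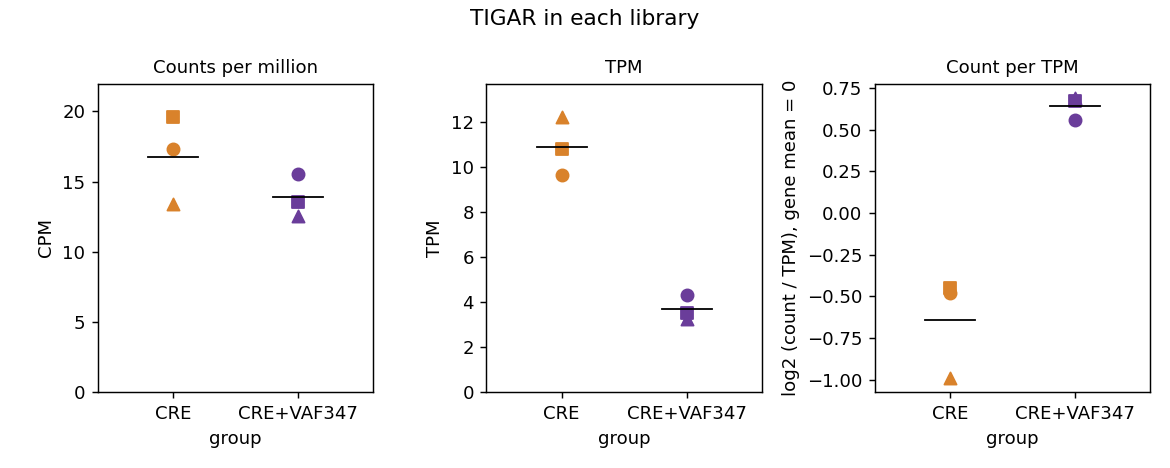
TIGAR in each library by group (orange for CRE, purple for CRE+VAF347, marker shape for replicate number, line for the mean of 3), as CPM, as TPM and as log2 of count over TPM centred on the gene. The groups overlap in CPM, stand apart in TPM at 10.9 and 3.69, and stand apart in the opposite direction in count per TPM.

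Levels can be compared between genes only per length, and in TPM the list spanned from under 1 to over 100. In CRE the highest were PLK2 at 189 ± 43.6 and BAX at 182 ± 5.66 TPM (SD, n = 3), which did not differ beyond their spread. CCNG1 at 149 ± 20.4 and TNFRSF10B at 128 ± 14.8 TPM came next and overlapped. With VAF347 the order was BAX at 215 ± 4.26, CCNG1 at 134 ± 9.96, PLK2 at 121 ± 2.49 and TNFRSF10B at 117 ± 2.50 TPM. BAX then stood clear of the others, and PLK2 lay next to TNFRSF10B. CHEK1 at 81.2, MDM2 at 64.0 and TRIAP1 at 60.4 TPM in CRE followed. ATM, at 105 CPM on average in CRE, was at 35.4 TPM once scaled by length. The lowest were EDA2R at 0.296 and SPATA18 at 0.889 TPM.

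Other genes of the p53 pathway were taken from a list of 34, of which 31 were tested. Of these, 1 rose (1.35% of all genes) and 5 fell (4.07% of all genes) at an adjusted p under 0.05. The median log2 fold change was 0.02. CDKN1A, the cell cycle inhibitor, had 178, 182 and 193 CPM in CRE and 181, 193 and 186 CPM with VAF347. Its libraries overlapped and its log2 fold change was 0.02 (95% interval -0.12 to 0.15, edgeR adjusted p = 0.911). Past both thresholds (2.21% of all genes) were SESN3, a sestrin like SESN1, STEAP3, a metalloreductase, and TRIM22, an antiviral ubiquitin ligase. SESN3 rose by 0.96 from 19, 23 and 21 counts to 34, 32 and 49, and STEAP3 and TRIM22 were at -0.76 and -0.58. The other 3 that fell were SFN, which holds cyclin-dependent kinase complexes in the cytoplasm, at -0.36, GDF15, a secreted stress cytokine, at -0.47, and PPP1R13L, an inhibitor of p53 activity, at -0.37. The edgeR adjusted p-values of these 6 lay between 0.0019 and 0.0442. SFN and STEAP3 passed without each library in turn. SESN3 did not pass without any one of the 6 libraries. The number of the list that then passed was 2 to 6, with 6 without CRE replicate 3 (8.26% of all genes). DESeq2 gave 5 (1.95% of all genes with a p-value), length offsets 1 (1.79% of all genes) and limma on log2(TPM + 1) 0 (0.545%). The DESeq2 share is over 28531 genes, of which some with few counts were given no adjusted p. It is therefore not on the same footing as shares over the 15373 genes of edgeR. The limma test had 5 at an unadjusted p under 0.05. With the correction for GC, chosen after seeing the data, 4 passed (4.2% of all genes), namely SFN, SESN3, STEAP3 and TRIM22. GDF15 and PPP1R13L did not pass there.

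A list of 40 other checkpoint and repair genes was tested in full, and 0 passed the adjusted p by edgeR, against 5.42% of all genes. At an unadjusted p under 0.05 there were 6, a level that 20.8% of all genes reached. DESeq2 gave 0 (1.95% of all genes with a p-value), with 5 at an unadjusted p under 0.05. Limma on log2(TPM + 1) gave 0 (0.545% of all genes), with 1 at that level. Without the filter on low counts edgeR gave 3, MDC1, RAD1 and HUS1, against 5.56% of all genes. Without CRE replicate 1 it gave 1, HUS1, against 3.98% of all genes. The fold changes ran from -0.25 to 0.33 with a median of 0.03. The 95% interval lay inside -0.5 to 0.5 for 39 of the 40, the exception being HUS1, a subunit of the clamp that loads at damaged DNA, at 0.33 (0.11 to 0.55). H2AX, the histone whose phosphorylated form marks breaks, was at -0.13 (edgeR adjusted p = 0.330), and its phosphorylation is not seen in RNA.

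**Figure D4:**
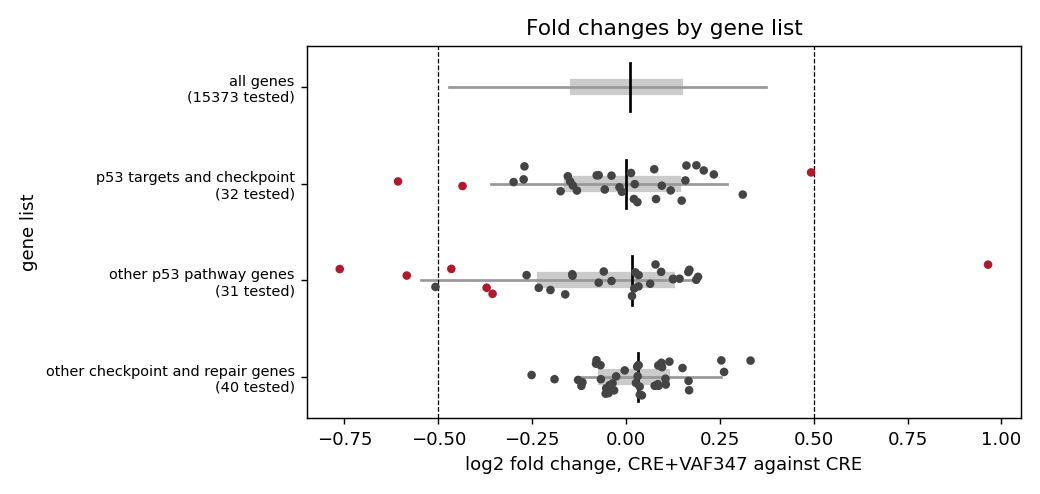
Log2 fold change, CRE+VAF347 against CRE (horizontal axis), for all genes and 3 gene lists (vertical axis). Each point is a tested gene, red where its adjusted p was under 0.05, black ticks are medians, grey boxes span the quartiles and grey lines the central 90% of values, which for the checkpoint and repair list run from -0.13 to 0.25 and for all genes from -0.47 to 0.37.

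Promoters were read to see whether letters recognized by AhR or p53 stand close to the starts of these genes. RefSeq promoter windows of 300 bases (250 before to 50 after a transcript start, GRCh38.p14) were found for 28 of the 33 genes, 43 windows in all. TNFRSF10B, RRM2B, TP53INP1, PHLDA3 and GADD45A had no entry. The core letters bound by AhR and its partner, GCGTG on either strand, stood in 19 of the 43 windows and in 36.5% of the 35116 windows of all genes. The p53 consensus decamer stood in 6 of the 43, those of PLK2, SESN1, FAS, DDB2, AEN and FDXR, and in 6.63% of all windows. The full p53 response element, a pair of decamers up to 13 bases apart, stood in 10 of all windows (0.0285%), and DDB2 was the 1 gene of the list with such a window. These are matches of letters, not bound sites, and the motifs can overlap one another.

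The windows of the called gene PLK2, of BBC3, the other gene that fell and has an entry, and of DDB2, the one with a full element, are shown 5′ to 3′ on the strand of the gene, with matches to these motifs in capitals. In PLK2 (chr5:58460037-58460336, minus strand) the capitals mark the decamer, 132 bases before the start, and CACGC, the reverse complement of the AhR core, 116 bases before it. In DDB2 (chr11:47214724-47215023, plus strand) they mark the response element. The BBC3 window (chr19:47232618-47232917, minus strand) holds none of the motifs. It was the only window found for BBC3, and the rest of the gene was not searched.
PLK2: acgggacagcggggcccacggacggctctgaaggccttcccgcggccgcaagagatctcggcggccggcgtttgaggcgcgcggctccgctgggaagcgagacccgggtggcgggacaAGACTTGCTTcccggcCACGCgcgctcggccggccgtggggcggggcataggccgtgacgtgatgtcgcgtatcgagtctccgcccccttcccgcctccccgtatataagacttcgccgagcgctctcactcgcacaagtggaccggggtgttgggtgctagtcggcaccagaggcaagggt
DDB2: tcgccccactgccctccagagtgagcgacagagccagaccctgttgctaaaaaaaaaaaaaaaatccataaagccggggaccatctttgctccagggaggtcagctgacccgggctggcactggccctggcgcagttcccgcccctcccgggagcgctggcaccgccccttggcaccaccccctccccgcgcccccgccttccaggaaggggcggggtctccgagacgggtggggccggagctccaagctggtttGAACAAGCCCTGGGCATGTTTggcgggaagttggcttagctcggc
BBC3: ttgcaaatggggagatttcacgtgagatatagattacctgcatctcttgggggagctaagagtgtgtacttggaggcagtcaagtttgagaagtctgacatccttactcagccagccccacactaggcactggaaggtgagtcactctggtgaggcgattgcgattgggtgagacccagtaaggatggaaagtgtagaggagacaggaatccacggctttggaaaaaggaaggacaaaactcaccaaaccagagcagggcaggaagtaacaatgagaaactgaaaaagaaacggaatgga
The level of PLK2 fell by 0.61 on the log2 scale, and that of DDB2, with the most complete p53 motif, differed by -0.13 without passing the test. SESN1, FAS, AEN and FDXR, with a decamer each, were at 0.01, 0.16, -0.17 and 0.03, none of them past the adjusted p.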

How the data were processed

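Poly(A) RNA of 6 HBEC libraries, 3 CRE and 3 CRE+VAF347, was sequenced in paired ends. Per the submitters' processing notes, the authors quantified reads with Salmon on hg38. The Salmon version, the annotation and the use of strand are not given in the sources used here. The authors deposited estimated counts per gene, of which 14.5% were not whole and which were rounded here, and TPM values, scaled by transcript length and library. A further table of the authors' own comparison (log2 fold changes and p-values) was not used. All 61228 gene identifiers matched GENCODE release 44, which gave coordinates, and 0 columns were unmatched to a sample.

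The rounded counts were tested by the quasi-likelihood method of edgeR 4.0.16 under R 4.3.3, after filterByExpr and TMM scaling, with p-values adjusted by Benjamini-Hochberg. CPM values are TMM-scaled. TPM values were tested with limma 3.58.1 on log2(TPM + 1), with a pseudocount of 0.1 as an alternative, so that fold changes of low genes are understated. DESeq2 1.42.0, other filters, length offsets, a replicate block and leaving out each library were alternatives. The steps were tested on simulated data. Nothing says that replicates were separate cultures, so p-values measure the spread between these samples, which may be technical. Totals of 8873160 to 10750283 counts set the precision, and intervals of genes with few counts are wide.

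The list of 33 genes and the other gene lists were chosen with earlier results of these data known. All 33 are named. From the 2 other pathway lists, genes with an adjusted p under 0.05 were named, up to 8 each in order of p, with CDKN1A and H2AX whatever they showed. One gene of the pathway is not reported here. HUS1, MDC1 and RAD1 and the gene pairs were singled out after their values were seen.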

Additional observations from a re-analysis of the deposited data

How the results depend on the processing

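The count of called genes on the list was 1 and stayed at 1 with DESeq2, with DESeq2 size factors, with both other filters on low counts and with the replicate block. It was 2 with length offsets (PLK2 and TIGAR) and with a GC offset chosen after seeing the data (GADD45A and PLK2), 0 with limma on log2(TPM + 1) with no filter, and 1 to 2 on leaving out single libraries. With limma and a filter the 1 called gene was TIGAR, not PLK2. The count at any fold, 3, was 5 with no filter on low counts (BAX and TRIAP1 were added), against 5.56% of all genes. It was 1 with limma on log2(TPM + 1) or log2(TPM + 0.1) and a filter, and 0 with limma on log2(TPM + 1) and no filter. On leaving out single libraries it was 1 to 5. With length offsets it was 2, PLK2 and TIGAR.

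Over all 15373 genes tested, the 340 called and 833 at any fold were 319 and 726 with the replicate block. They were 217 and 275 with length offsets and 315 and 645 with the GC offset. DESeq2 gave 239 and 555 of 28531 genes with a p-value. With no filter on low counts there were 598 and 1586 of 28533, shares of 2.1% and 5.56% against 2.21% and 5.42% in the main test. Limma gave 84 and 87 of 15952 genes with a filter, and 32 and 32 of 28571 with no filter. Leaving out single libraries gave 201 to 380 and 305 to 1287. The 380 and 1287 (2.44% and 8.26%) came without CRE replicate 3, and the next highest at any fold, without CRE replicate 1, was 622 (3.98%). The deviations of same-numbered libraries from their group means correlated at 0.053, 0.033 and 0.015. Each library correlated best with its own number, in part by a small margin. CRE+VAF347 replicate 3 correlated at 0.015 with CRE replicate 3 and at 0.010 with CRE replicate 2. Deviations from a mean of 3 libraries are tied to one another, so this order cannot show that libraries were paired. The labels name no shared batch, and the samples share only a number. With the block 1 gene of the list was called and 2 passed at any fold, BBC3 having an edgeR adjusted p of 0.0504, and no other gene of the list crossed the threshold.

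For the single genes, 461 log2 fold changes under the alternatives kept their sign and their joint call (adjusted p and fold together), 6 were newly called and 3, all of PLK2 on TPM, were no longer called. On the adjusted p alone, 22 of 508 values lost it (12 of BBC3, 7 of GADD45A and 3 of PLK2) and 8 gained it (4 of TIGAR, 2 of TRIAP1, 1 of BAX and 1 of PHLDA3). Another 39 changed sign, all from genes that did not pass the test. With limma on log2(TPM + 1), filtered or not, MDM2 was -0.016, MDM4 0.028, ATM -0.123, CHEK1 -0.013, SESN1 -0.068 and TP53I3 -0.023. With log2(TPM + 0.1) these were -0.016, 0.031, -0.127, -0.013, -0.073 and -0.023. With length offsets MDM4 was 0.066, ATM -0.066 and SESN1 -0.034, and with the GC offset ATM was -0.068, ATR -0.084 and SESN1 -0.071. Leaving out single libraries gave ranges of -0.062 to 0.077 for MDM4, -0.094 to 0.028 for PPM1D, -0.0073 to 0.052 for ATM, -0.030 to 0.075 for ATR, -0.0041 to 0.134 for CHEK2, -0.676 to 0.070 for SPATA18, -0.099 to 0.194 for SESN1 and -0.038 to 0.106 for FDXR. The cause was not tested. With 3 libraries a group, the interval of SPATA18, at 8 to 20 counts, covers both signs.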
